A study of Sus scrofa with 30 samples.

Results

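The miRNAs miR-221 and miR-222 are made from the hairpins mir-221 and mir-222 and were followed here in the porcine endometrium. Members were the sequences of the study's annotated list whose name holds one of these 2 hairpin names, and 11 of its 873 sequences met this rule. They comprised 4 sequences of miR-221-3p, 3 of miR-221-5p and 4 of miR-222. Small RNA came from 16 pregnant (P) and 14 cyclic (C) gilts, with 1 library per gilt, sampled post mortem on day (D) 12, 16 or 20. The groups held 5 (PD12), 5 (PD16), 6 (PD20), 4 (CD12), 5 (CD16) and 5 (CD20) animals. All gilts were Hampshire x Duroc crosses of 7 to 8 months from 1 commercial herd, and the labels name no allele and no drug. Pregnant gilts had been inseminated and were kept as pregnant where at least 4 conceptuses were found. Conceptuses were flushed out until D16 but dissected from the uterine wall on D20, when the tissue was taken at implantation sites. PD20 thus differed from the other groups also in how the tissue was freed and where it was taken.

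A library held between 2029729 and 6402731 reads, and 14263 reads over all libraries belonged to the listed forms of miR-221-3p, 6409 to those of miR-222 and 2100 to those of miR-221-5p. Levels are given as normalized reads, which are counts relative to the reads of the 873 annotated sequences in the library (CPM), scaled by the trimmed mean of M-values (TMM). A read covers a whole miRNA, so levels of different sequences need no correction for length. The tissue was whole endometrium, in which fewer cells of a type and less miRNA per cell cannot be told apart. A pair of libraries stood apart. In PD20 replicate 1 the miRNAs miR-143 and miR-145, which are abundant in smooth muscle, took 41.0% of the annotated reads, against at most 16.5% in any other library. CD20 replicate 1 was the least like the rest, with a mean Pearson r of 0.846 to the other 29 libraries, against at least 0.897 for every other library. The D20 results that the text turns on are also given without each of them. The sequence of miR-302, an embryonic miRNA that the list holds under gene identifiers, had reads in 6 of 6 PD20 libraries (7, 4, 11, 117, 48 and 121 reads in replicates 1 to 6) and in 2 of the other 24 libraries, both of CD20, with 3 reads in all. Its part in the values below was not tested.

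As background, mir-221 and mir-222 are neighbouring hairpins on the X chromosome and are usually transcribed together. A miRNA binds messenger RNAs mainly through its seed, and both miRNAs are known for lowering KIT, the receptor of stem cell factor, and the cell cycle inhibitor CDKN1B. In endothelial cells they are linked to restrained vessel formation, and the endometrium builds many new vessels when conceptuses attach. In the RefSeq gene table of pig (Sscrofa11.1), MIR221 and MIR222 were adjacent genes on chromosome X.

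Sequences from the study's annotated list and, for ADD CT, from the deposited reads show how the members differ. They are printed 5′ to 3′ as DNA letters, with the seed (bases 2 to 8) in capitals, and an isomiR is named after the bases added (ADD) to or missing (DEL) from the canonical sequence. The 3 canonical sequences, the forms that outnumbered them and the forms with the largest differences between groups are shown.
miR-221-3p: aGCTACATtgtctgctgggttt
miR-221-3p ADD C: aGCTACATtgtctgctgggtttc
miR-221-3p ADD CA: aGCTACATtgtctgctgggtttca
miR-221-3p ADD CT: aGCTACATtgtctgctgggtttct
miR-221-5p: aCCTGGCAtacaatgtagatttctgt
miR-221-5p DEL TGT: aCCTGGCAtacaatgtagatttc
miR-222: aGCTACATctggctactgggtctc
miR-222 ADD T: aGCTACATctggctactgggtctct
miR-222 DEL CTC: aGCTACATctggctactgggt
All 4 sequences of miR-221-3p and all 4 of miR-222 carried the seed GCTACAT, and the 3 of miR-221-5p carried CCTGGCA. No other sequence of the 873 had either seed. Canonical miR-221-3p and miR-222 were the same over the first 8 bases and at 11 of 22 positions when laid side by side from the 5′ end. Every one of the 8 isomiRs began at the canonical first base and differed at the 3′ end alone, by 1 to 3 bases.

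miR-221-3p was the most abundant of the 3, followed by miR-222 and miR-221-5p. Summed over the listed forms and averaged over the libraries, the levels were 187, 83.9 and 27.3 normalized reads. Reads of miR-221-3p exceeded those of miR-222 in 29 of 30 libraries, and miR-222 exceeded miR-221-5p in all 30. Among 237 rows in which forms of the same miRNA were summed, they ranked 81, 100 and 143 by mean level, so none was among the leading miRNAs of this tissue.

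The group mean of summed miR-221-3p was highest in CD20, at 241 ± 99.0 (SD, n = 5) normalized reads, and lowest in PD16, at 142 ± 31.3 (SD, n = 5). The libraries of CD20 held 172, 344, 347, 209 and 134, and those of PD16 held 164, 117, 182, 139 and 108. PD20 (219 ± 68.3), PD12 (180.4 ± 22.9), CD16 (171 ± 51.7) and CD12 (153 ± 37.1) lay between them. Each neighbouring pair in this order differed by less than the larger SD of the pair.

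Summed miR-222 followed another order, with PD20 first and CD12 last. Its libraries held between 64.4 and 217 (median 142) normalized reads in PD20 and 23.01, 37.4, 69.4 and 57.3 in CD12. The means were 135 ± 57.7 (SD, n = 6) in PD20, 82.5 ± 35.98 (SD, n = 5) in PD16, 77.5 ± 27.1 (SD, n = 5) in CD16, 76.8 ± 36.04 (SD, n = 5) in PD12, 67.1 ± 27.5 (SD, n = 5) in CD20 and 46.8 ± 20.6 (SD, n = 4) in CD12. Here too every neighbouring pair differed by less than its larger SD. Summed miR-221-5p, the strand usually degraded when the hairpin is processed, stayed between 24.2 ± 8.96 (SD, n = 4) in CD12 and 31.4 ± 12.4 (SD, n = 5) in PD12, and its libraries overlapped between all neighbouring groups.

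**Figure D1:**
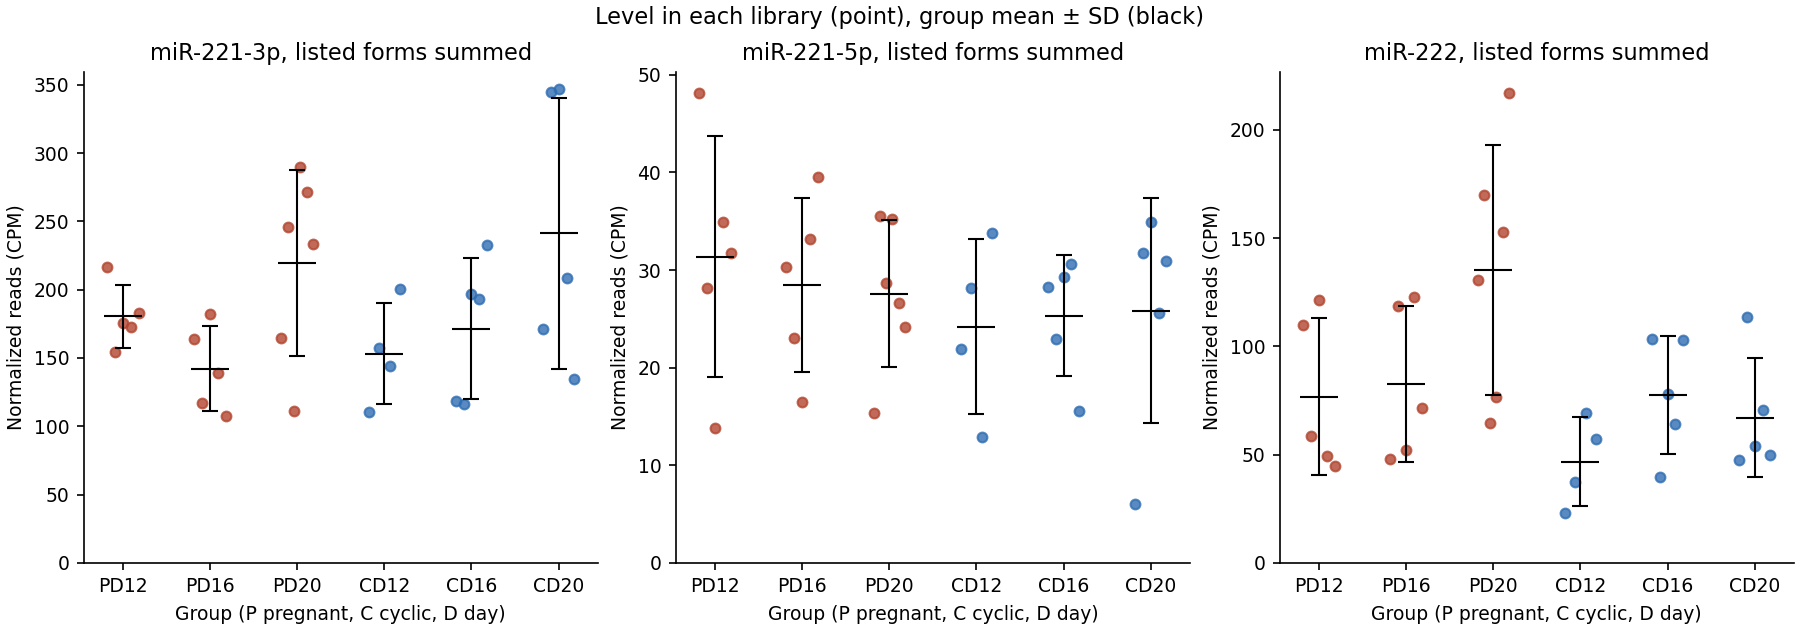
Normalized reads (CPM) of each arm, summed over the listed forms, in each library (point), with the group mean and SD in black and pregnancy in red, the cycle in blue. The PD20 libraries of miR-222 spread between 64.4 and 217, and the groups overlap in every panel.

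Most reads of miR-221-3p and miR-222 were not canonical. The 23-nt miR-221-3p ADD C held 64.2% ± 9.17 (SD, n = 30) of the listed reads of its arm, against 30.6% ± 8.45 for the canonical 22-nt sequence, and it outnumbered the canonical sequence in 28 of 30 libraries. The exceptions were PD20 replicate 3 and CD20 replicate 1. The 21-nt DEL T form (3.25% ± 1.52) and the 24-nt ADD CA form (1.97% ± 1.27) were minor. In miR-222 the 25-nt ADD T form held 45.1% ± 11.5, the canonical 24-nt sequence 35.9% ± 7.20, DEL C 14.6% ± 9.17 and DEL CTC 4.35% ± 3.99. ADD T exceeded canonical miR-222 in 22 of 30 libraries. Canonical miR-221-5p (26 nt) held 50.3% ± 16.5 of its arm, DEL GT 30.4% ± 13.5 and DEL TGT 19.3% ± 9.21.

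Of the 11 members, 9 had reads in every library. Canonical miR-221-5p had 0 reads in CD12 replicate 2, which allows up to 0.769 normalized reads (3 reads), whereas DEL GT had 94 reads there. miR-221-3p ADD CA had 0 reads in PD16 replicate 2, which allows up to 1.77. These limits cover counting error only. By the study's methods the list was drawn from sequences with at least 10 reads in at least 4 libraries of a group (3 in CD12), a minimum that 854 of the 873 met in the deposited counts. Of the 11 members, 6 met it in all 6 groups, and miR-222 DEL C missed it in CD16. miR-221-3p DEL T met it in PD12 and PD20 alone, miR-221-5p DEL TGT in PD12 and CD12 alone, miR-221-3p ADD CA in CD20 alone and miR-222 DEL CTC in PD20 alone. A form had to be frequent where it met the minimum, so the values of these 4 against such a group are given as descriptions, without a p. Counts and medians that hold them support nothing. By mean level the members ranged from 2.80 (miR-222 DEL CTC) to 121 (miR-221-3p ADD C) normalized reads, and ranked from 196 to 861 among the 873.

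**Figure D2:**
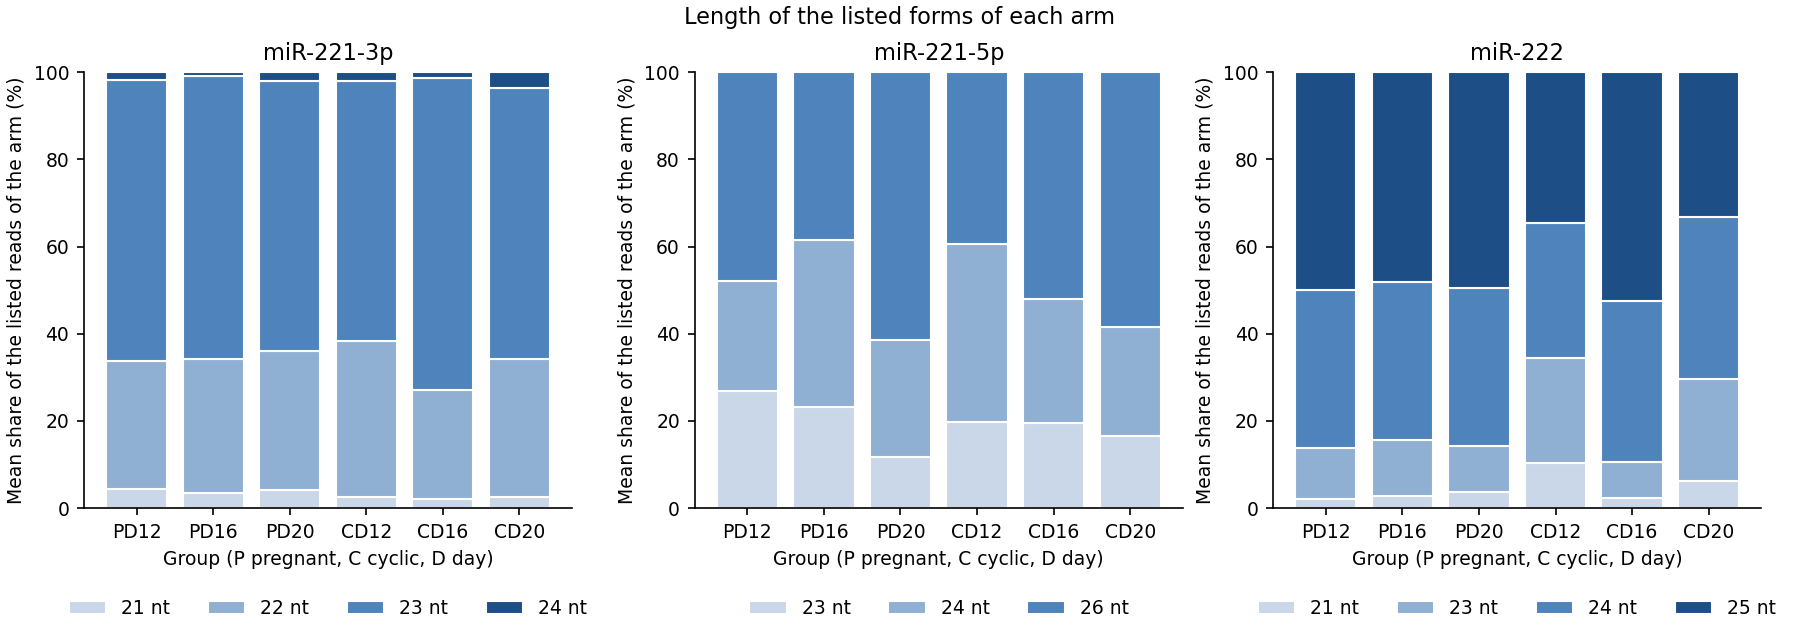
Mean share (%) of each length among the listed reads of miR-221-3p, miR-221-5p and miR-222 in the 6 groups, over the libraries of a group. In miR-222 the 25-nt form takes 34.7% in CD12 and 33.2% in CD20, and 48.2% to 52.4% in the other groups.

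Pregnancy was compared with the cycle on each day. The smallest adjusted p of any member was that of miR-222 ADD T on D20. This form lay between 28.9 and 116 (median 76.0) normalized reads in PD20, and the CD20 libraries held 8.33, 43.7, 20.5, 27.8 and 16.2. The mean was 68.5 ± 33.1 (SD, n = 6) in PD20 against 23.3 ± 13.4 (SD, n = 5) in CD20, and 4 of 6 PD20 libraries lay above every CD20 library, while the other 2 overlapped with them. The log2 fold change (log2FC) was 1.56 (SE 0.47). Over all 873 sequences this did not pass the quasi-likelihood F-test of edgeR (unadjusted p = 0.00383, adjusted p = 0.0630), where calling a sequence took both an adjusted p below 0.05 and a log2FC beyond 1 in either direction.

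The forms of miR-222 had unequal fold changes on D20. Canonical miR-222 lay between 17.4 and 86.8 (median 48.8) in PD20, against 14.8, 38.1, 22.8, 27.3 and 20.5 in CD20. Its log2FC was 1.04 (SE 0.41, adjusted p = 0.114, edgeR). The shorter forms DEL C and DEL CTC had log2FC of -0.31 and 0.08. For the sum of the 4 forms log2FC was 1.21 (SE 0.38), which also missed the threshold (edgeR, adjusted p = 0.0553 over 237 summed rows). Without PD20 replicate 1 the log2FC of ADD T was 1.499 (adjusted p = 0.0879) and without CD20 replicate 1 it was 1.37 (adjusted p = 0.158). Canonical miR-222 gave 1.00 and 0.92 (adjusted p = 0.146 and 0.239) without the one and the other, and the sum 1.21 and 1.02 (adjusted p = 0.0876 and 0.134). The call turned on the test, on the scaling, on the libraries fitted together and on 1 library. ADD T and the sum passed the likelihood ratio test of edgeR (adjusted p = 0.0219 and 0.0270), which called 14.2% of all sequences and 15.2% of all summed rows. Both passed the F-test without PD20 replicate 4 (0.0281 and 0.0298), where it called 13.3% and 15.6%. DESeq2 called ADD T as well (adjusted p = 0.0161), among 15% of all sequences, and so did the F-test in 1 fit of all libraries (adjusted p = 0.0349), among 11.2%. With RLE scaling the sum was called among 9.28% of the summed rows. Each of these settings called a larger share than the F-test on all D20 libraries, with its 1.49% of the sequences and 8.02% of the summed rows, and the calls of ADD T and the sum do not set miR-222 apart from the rest. Replicates 4 and 6, highest in miR-302 at 39.3 and 41.2 normalized reads, were the lowest and the highest PD20 libraries in ADD T (28.9 and 116). The part of miR-302 in ADD T was not tested, and nothing is read from these libraries.

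For miR-221, from the neighbouring hairpin, the groups were closer. Canonical miR-221-3p lay between 43.6 and 99.7 (median 62.3) in PD20 and its CD20 libraries held 92.0, 100.1, 75.9, 62.4 and 31.4. The groups overlapped widely (log2FC -0.10, SE 0.36, adjusted p = 0.862, edgeR). Canonical miR-221-5p gave log2FC 0.24 (SE 0.43, adjusted p = 0.735). The sums of miR-221-3p and miR-221-5p gave 0.09 (SE 0.33) and 0.31 (SE 0.41). Without PD20 replicate 1 and without CD20 replicate 1 canonical miR-221-3p gave 0.00 and 0.01 and canonical miR-221-5p 0.43 and 0.0117. The sum of miR-221-3p then gave 0.16 and -0.0898, and the sum of miR-221-5p 0.43 and -0.0330. Scaled by all deposited reads these sums turned to -0.32 and -0.04, a scaling that moved the median of all summed rows by -0.41.

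On D12 the 2 longest forms of miR-222 had positive fold changes with wide errors. ADD T lay at 64.1, 28.2, 66.1, 20.3 and 21.2 in PD12 and 4.93, 9.99, 23.9 and 32.2 in CD12, with overlap, and log2FC was 1.18 (SE 0.56). Canonical miR-222 gave 1.03 (SE 0.49, adjusted p = 0.677) and the sum 0.72 (SE 0.42, adjusted p = 0.690, edgeR). The shortest form, DEL CTC, had a negative one. It held 0.625, 0.344, 0.462, 0.339 and 3.85 in PD12 and 4.38, 3.33, 4.78 and 3.71 in CD12, so 4 of 5 PD12 libraries, with 1 or 2 reads each, lay below all of CD12 (log2FC -1.78, SE 0.71, adjusted p = 0.677). Without PD12 replicate 5, which overlapped with CD12, log2FC was -3.03 (adjusted p = 0.267). miR-221-3p DEL T held 5.94, 7.56, 6.47, 5.76 and 12.2 in PD12, above every CD12 library (3.84, 3.33, 3.35 and 4.53), with log2FC 1.01 (SE 0.43), but PD12 is one of the groups that put it on the list. Canonical miR-221-3p overlapped between the groups (log2FC -0.02, SE 0.35, adjusted p = 0.992), and canonical miR-221-5p gave 0.84 (SE 0.82), or 1.72 without CD12 replicate 4 (edgeR, adjusted p = 0.825). The sums of miR-221-3p and miR-221-5p gave 0.22 (SE 0.29) and 0.36 (SE 0.41).

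On D16 pregnancy and cycle overlapped in all 3 sums. Summed miR-222 held 47.8, 119, 52.1, 123 and 71.4 in PD16 and 103, 39.6, 77.9, 64.0 and 103 in CD16 (log2FC -0.20, SE 0.36). For the canonical sequences log2FC was 0.00 (SE 0.34, miR-221-3p), -0.28 (SE 0.46, miR-221-5p) and -0.05 (SE 0.45, miR-222). Summed miR-221-3p gave -0.52 (SE 0.31, adjusted p = 0.617, edgeR) and summed miR-221-5p -0.07 (SE 0.32). For summed miR-221-3p log2FC lay between -0.63 and -0.20 when each library was left out, and between -0.52 and -0.19 over the settings run.

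Counted over the 3 days, 0 of 11 members were called by the F-test of edgeR, beside 0.0% of all sequences on D12, 0.0% on D16 and 1.49% on D20. An unadjusted p under 0.05 was reached by 2 members on D12 (miR-221-3p DEL T and miR-222 DEL CTC), 0 on D16 and 2 on D20 (canonical miR-222 and ADD T), beside 6.08%, 10.9% and 28.5% of all sequences. The median log2FC of the 11 was 0.36, 0.00 and 0.08, beside 0.04, 0.03 and -0.03 over all. These medians hold the forms listed through certain groups alone and are descriptions. The likelihood ratio test and DESeq2 called 0, 0 and 1 of the 11, beside 0.115%, 0.573% and 14.2% of all sequences by the one and 0.0%, 0.803% and 15% by the other. On D20, 1 of 11 is 9.09%, below both shares. Of the 3 sums 0 were called on any day, beside 0.0%, 0.0% and 8.02% of all summed rows. Averaged over the days, the fold change of pregnancy to cycle for miR-222 ADD T was a log2FC of 0.91 (SE 0.29, adjusted p = 0.0765) and for canonical miR-222 0.69 (SE 0.26, adjusted p = 0.147). Neither passed the F-test. ADD T reached an adjusted p of 0.0339 by the likelihood ratio test, 0.0359 by DESeq2 and 0.0326 by the F-test without PD16 replicate 1, and was then not called because its log2FC (0.91, 0.89 and 0.97) lay below 1. miR-221-3p DEL T, listed through PD12 and PD20, gave 0.65 (SE 0.24). The sums gave 0.57 (SE 0.23, adjusted p = 0.140) for miR-222, -0.09 (SE 0.17) for miR-221-3p and 0.17 (SE 0.23) for miR-221-5p. Over the days 0 of 11 members and 0 of 3 sums were called, beside 1.83% of all sequences and 0.844% of the summed rows. The unadjusted p was under 0.05 for 3 members (ADD T, canonical miR-222 and DEL T), beside 19.6%, and the likelihood ratio test and DESeq2 called 0, beside 3.09% and 3.21%.

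**Figure D3:**
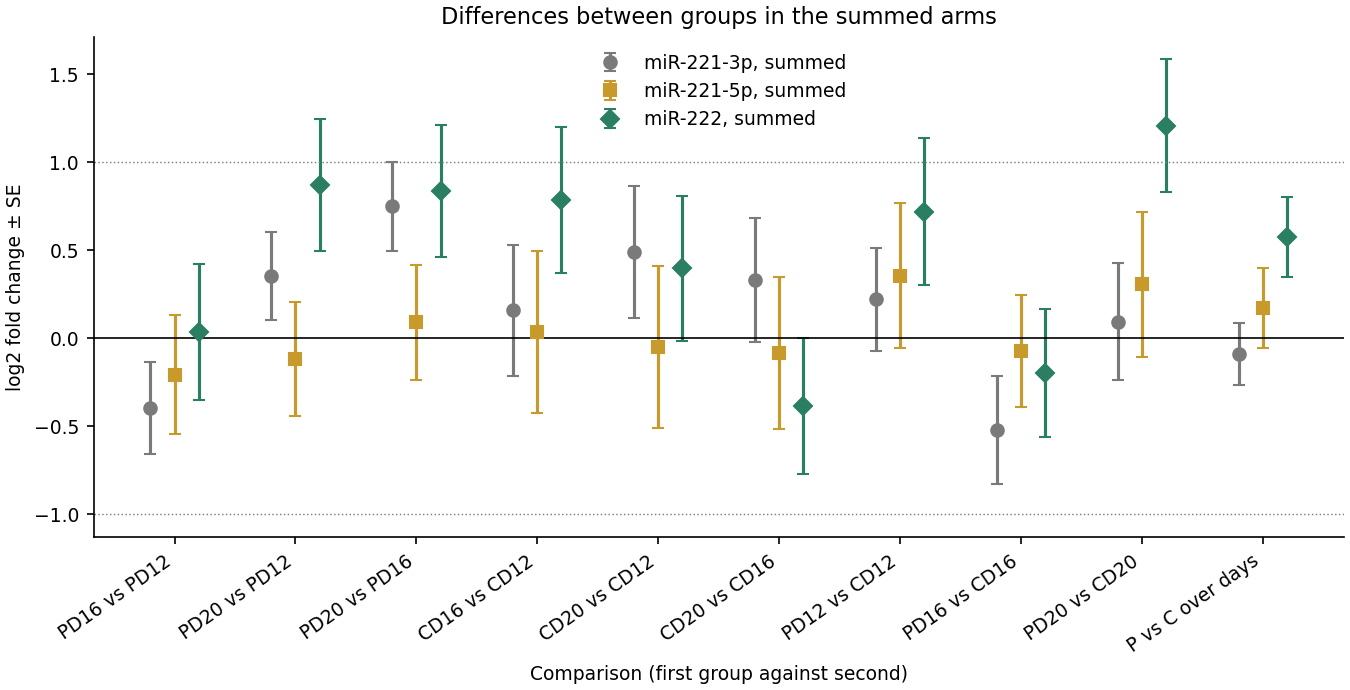
log2 fold change with its SE (edgeR) of summed miR-221-3p, miR-221-5p and miR-222 in 10 comparisons, with dotted lines at 1 and -1. miR-222 reaches 1.21 in PD20 vs. CD20, the one point past a dotted line.

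Within pregnancy a joint test set both later days against D12, and a further one set D20 against D16. The 23-nt miR-221-5p DEL TGT had its lowest values on D20. It held 7.51, 6.18, 6.47, 7.12 and 9.30 normalized reads in PD12, 3.03, 3.54, 6.71, 7.07 and 11.4 in PD16 and between 1.40 and 5.11 (median 3.11) in PD20. Every PD20 library lay below every PD12 library, and its reads numbered between 4 and 15 per PD20 library. The log2FC was -1.20 (SE 0.39) against D12, through which it was listed, and -1.04 (SE 0.39, adjusted p = 0.261) against D16. It was -1.02 and -0.87 (edgeR, adjusted p = 0.350 against D16) without PD20 replicate 1. Its neighbour DEL GT, 1 base longer, gave -0.16 (SE 0.40) against D12.

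miR-222 DEL CTC had a positive fold change, with a log2FC of 1.81 (SE 0.64) on PD20 vs. PD12, where PD20 is the one group that put it on the list. Its PD20 libraries lay between 1.70 and 5.92 (median 4.27), 3 of 6 above every PD12 library. PD12 replicate 5 decided the size, and without it log2FC was 3.05. Leaving out PD20 replicate 1 gave 1.82. miR-221-3p ADD CA held 2.28, 0, 3.10, 0.372 and 1.43 in PD16 and lay between 2.37 and 10.6 (median 3.02) in PD20, with overlap (log2FC 1.56, SE 0.64, adjusted p = 0.261), and log2FC was 1.69 without PD20 replicate 1. Of the sums, miR-221-3p gave 0.75 (SE 0.25, adjusted p = 0.196) and miR-222 0.84 (SE 0.38, adjusted p = 0.273) on D20 against D16, and for each 4 of 6 PD20 libraries lay above all of PD16. They gave 0.81 and 0.84 without PD20 replicate 1. Against D12, miR-222 gave 0.87 (SE 0.38, joint adjusted p = 0.212) on D20 and 0.04 (SE 0.39) on D16, and miR-221-3p gave 0.35 (SE 0.25, joint adjusted p = 0.183) and -0.39 (SE 0.26). For summed miR-221-5p log2FC ranged from -0.21 (SE 0.34, PD16 vs. PD12) to 0.09 (SE 0.33, PD20 vs. PD16). None of the members or sums was called by edgeR. Of all sequences, the shares called were 0.229% (PD16 vs. PD12), 0.802% (PD20 vs. PD12) and 0.573% (PD20 vs. PD16), and of the summed rows 1.27%, 3.38% and 1.69%. An unadjusted p under 0.05 was reached by 2 of 11 members in the joint test (DEL TGT and DEL CTC), beside 18.7% of all sequences, and by 2 on PD20 vs. PD16 (ADD CA and DEL TGT), beside 14.2%. The median log2FC of the 11 was -0.17 (PD16 vs. PD12), 0.35 (PD20 vs. PD12) and 0.57 (PD20 vs. PD16), beside 0.05, -0.01 and -0.06 over all. Since these medians hold forms listed through PD12 or PD20, nothing is read from them. The likelihood ratio test and DESeq2 also called 0 members, beside 2.75% and 2.86% of all sequences (PD16 vs. PD12), 5.27% and 5.27% (PD20 vs. PD12), and 2.41% and 1.72% (PD20 vs. PD16).

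Within the cycle the 24-nt miR-221-3p ADD CA was highest in CD20, the one group through which it was listed, so its values there are a description. It held 4.17, 13.7, 12.6, 6.68 and 7.14 normalized reads in CD20, against 1.35, 1.48, 4.25, 1.39 and 3.19 in CD16 and 3.29, 0.256, 3.83 and 4.95 in CD12. Of the 5 CD20 libraries, 4 lay above every CD16 library and 4 above every CD12 library. On CD20 vs. CD16 log2FC was 1.81 (SE 0.60), and on CD20 vs. CD12 it was 1.54 (SE 0.63). Without CD20 replicate 1 these were 2.05 and 1.69. This is a rare form, with between 3 and 39 reads in a CD16 or CD20 library. It was not called by the F-test, but by the likelihood ratio test and DESeq2 in both comparisons and by 1 fit of all libraries on CD20 vs. CD16, and nothing is read from these calls. Those 2 tests called 5.27% and 5.84% of all sequences (CD16 vs. CD12), 5.73% and 6.41% (CD20 vs. CD12) and 6.41% and 8.59% (CD20 vs. CD16), and the 1 fit of all libraries called 7.33% on CD20 vs. CD16.

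Forms of miR-222 had fold changes of opposite sign between CD12 and CD16. DEL CTC held 4.38, 3.33, 4.78 and 3.71 in CD12 and 0.538, 1.11, 1.89, 2.32 and 1.99 in CD16, and the groups did not overlap (log2FC -1.31, SE 0.54, joint adjusted p = 0.198, edgeR). Canonical miR-222 and ADD T gave 1.24 (SE 0.48, joint adjusted p = 0.231) and 1.27 (SE 0.54, joint adjusted p = 0.229). On CD20 vs. CD16 the signs were the other way round for the shortest form (log2FC 1.24, SE 0.52, adjusted p = 0.170, or 1.09 without CD20 replicate 1) and for ADD T, with -0.90 (SE 0.50). The sum of miR-222 gave 0.78 (SE 0.42), 0.40 (SE 0.41, joint adjusted p = 0.383) and -0.39 (SE 0.38, adjusted p = 0.561) for CD16 vs. CD12, for CD20 vs. CD12 and for CD20 vs. CD16. The sum of miR-221-3p gave 0.16 (SE 0.37), 0.49 (SE 0.37) and 0.33 (SE 0.35), and the sum of miR-221-5p stayed within -0.08 (SE 0.43) and 0.03 (SE 0.46). The F-test called 0 members and 0 sums. Of all sequences it called 0.115% (CD16 vs. CD12), 0.458% (CD20 vs. CD12) and 0.458% (CD20 vs. CD16), and of the summed rows 1.69%, 2.11% and 4.64%. An unadjusted p under 0.05 was reached by ADD CA and DEL CTC in the joint test (2 members), beside 23.9%, and by the same 2 on CD20 vs. CD16, beside 21.2%. The median log2FC of the 11 was -0.00149 (CD16 vs. CD12), 0.42 (CD20 vs. CD12) and 0.22 (CD20 vs. CD16), beside 0.03, 0.09 and -0.03 over all. Here too forms listed through certain groups enter the medians, and nothing is read from them.

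Whether pregnancy and cycle differed by unequal amounts on the 3 days was tested with interaction terms over all 30 libraries. The difference in miR-222 ADD T was larger on D20 than on D16 by 1.53 on the log2 scale (SE 0.68, adjusted p = 0.205), and that of summed miR-222 by 1.24 (SE 0.54, adjusted p = 0.172). For miR-222 DEL CTC it was larger on D16 than on D12 by 2.16 (SE 0.87, adjusted p = 0.564) and on D20 than on D12 by 1.82 (SE 0.80), the latter a description since it uses PD20. Without PD12 replicate 5 these were 3.44 and 3.10 (adjusted p = 0.211 for the former). Without PD20 replicate 1 and without CD20 replicate 1, D20 minus D16 was 1.66 and 1.37 for ADD T and 1.47 and 1.12 for the sum. None passed the F-test of edgeR. It called 0 of 11 members and 0 of 3 sums, beside 0.0%, 0.115% and 2.41% of all sequences for D16 minus D12, D20 minus D12 and D20 minus D16, and 0.0%, 0.844% and 3.38% of the summed rows. In each of the 3, 1 member had an unadjusted p under 0.05, beside 8.13%, 16.4% and 19.1% of all sequences. The likelihood ratio test and DESeq2 called 0, beside 0.0%, 1.83% and 5.38% of all sequences by the one and 0.0%, 2.52% and 5.96% by the other.

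Values formed within a library need no scaling between libraries, and 4 such values were compared over 9 pairs of groups, giving 36 exact two-sided permutation tests adjusted together. The read-weighted mean length of the listed miR-222 forms showed the 2 smallest p-values. It was 24.42, 24.49, 24.53, 24.21 and 24.22 nt in CD16 and 23.42, 24.04, 24.08, 24.03 and 23.98 nt in CD20. The groups did not overlap, and their means were 24.4 ± 0.151 and 23.9 ± 0.274 nt (SD, n = 5 each). The permutation p was 0.00794, the smallest that 5 against 5 animals can give, and the adjusted p was 0.156. In PD20 the mean length lay between 24.05 and 24.45 (median 24.31) nt, 0.370 nt above CD20 on average (exact permutation p = 0.00866, adjusted p = 0.156), and only PD20 replicate 4 fell within the range of CD20. CD20 replicate 1 was the shortest library of its group, and without it these differences were -0.342 nt for CD20 vs. CD16 and 0.248 nt for PD20 vs. CD20.

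The mean length of miR-222 in CD12 did not pass the adjusted test against PD12 or CD16. The CD12 libraries averaged 23.31, 23.84, 23.78 and 24.25 nt, with a mean 0.522 nt below that of PD12 and 0.578 nt below that of CD16 (exact permutation p = 0.0476 and 0.0476, adjusted p = 0.286 and 0.286). The libraries of PD12 averaged 24.50, 24.38, 24.46, 24.25 and 24.00 nt and those of PD16 24.12, 24.15, 24.36, 24.49 and 24.24 nt. In shares, DEL C and DEL CTC held 24.1% ± 12.3 and 10.3% ± 5.91 of miR-222 reads in CD12 (SD, n = 4) and 23.2% ± 9.98 and 6.30% ± 3.50 in CD20, against 8.26% ± 3.43 and 2.26% ± 1.15 in CD16. No group of pregnancy averaged above 12.8% DEL C. Mean lengths of miR-221-3p stayed between 22.6 (CD12) and 22.7 nt (CD16), with no p under 0.05 in 9 exact permutation tests.

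The ratio of miR-222 to miR-221-3p was compared in the same way. Its log2 value lay between -1.92 and -0.11 (median -0.66) in PD20, and was -1.86, -1.60, -2.69, -1.56 and -1.43 in CD20. The means were -0.75 ± 0.63 and -1.83 ± 0.50, a difference of 1.07 (exact permutation p = 0.0216, adjusted p = 0.260). It was 0.99 without PD20 replicate 1 and 1.07 without CD20 replicate 1. On D12 and D16 the differences were 0.45 and 0.30 (exact permutation p = 0.254 and 0.524). Within the cycle the log2 ratio was -0.65 on CD20 vs. CD16 (exact permutation p = 0.0476, adjusted p = 0.286). This difference lay between -0.88 and -0.22 over the settings run, and between -0.76 and -0.41 when each library was left out. The log2 ratio of miR-221-5p to miR-221-3p averaged -2.80 ± 0.71 (SD, n = 30), and pregnancy and cycle differed in it by 0.09, 0.39 and 0.37 on D12, D16 and D20. Of the 36 tests, 0 had an adjusted p under 0.05 and 6 had an unadjusted p under 0.05.

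**Figure D4:**
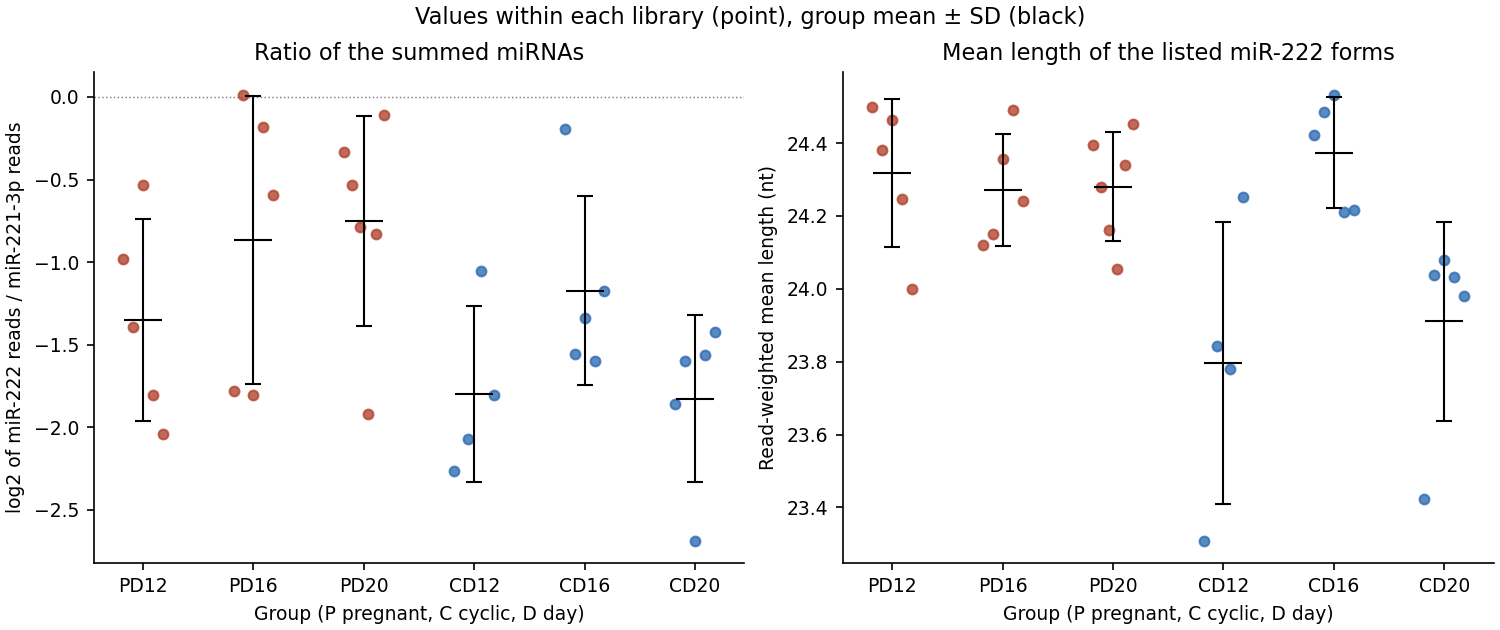
Log2 ratio of summed miR-222 to summed miR-221-3p reads (left) and read-weighted mean length in nt of the listed miR-222 forms (right) in each library, with the group mean and SD in black. All CD20 libraries lie below all CD16 libraries in length, and the length axis starts above 0.

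Many reads of the same miRNAs were outside the annotated list. Sequences that began with the first 17 bases of a canonical sequence but were not listed held 11327 reads for miR-221-3p (44.3% of reads with that start), 2517 for miR-222 (28.2%) and 994 for miR-221-5p (32.1%). The leading one, miR-221-3p ADD CT, was chosen after its counts were seen. It had 5606 reads, against 294 for the listed ADD CA, which differs from it in the last base alone, and it was the more frequent of both in all 30 libraries. Its level was 84.0 ± 27.5 (SD, n = 5) in PD12, 70.8 ± 19.9 (SD, n = 5) in PD16, 65.6 ± 24.5 (SD, n = 6) in PD20, 67.1 ± 31.2 (SD, n = 4) in CD12, 79.8 ± 14.7 (SD, n = 5) in CD16 and 71.3 ± 49.6 (SD, n = 5) in CD20, above canonical miR-221-3p in 20 of 30 libraries. In a fit of all deposited sequences with at least 10 reads, its smallest unadjusted p over the comparisons was 0.214 (edgeR).

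Other miRNAs linked to vessel growth gave a wider setting. Of a list of 24, 19 were matched by name, with 91 sequences. In PD20 vs. CD20, 2 of 91 were called (2.20%, beside 1.49% of all), and 26 had an unadjusted p under 0.05 (28.6%, beside 28.5%). An 18-nt sequence shared by miR-23a and miR-23b, which act in endothelial cells, was among them with log2FC 2.20 (SE 0.48), and canonical miR-27a, from the same cluster as miR-23a, fell (log2FC -2.63, SE 0.55, adjusted p = 0.0262). The 18-nt sequence met the read minimum in PD16 and PD20 alone, so its value is a description. One of the 2 calls thus rests on the list's own read minimum, and nothing is read from the share of 2.20%. Both calls held without PD20 replicate 1, where 3 of 91 were called, beside 1.03% of all. Neither held without CD20 replicate 1, where 0 of 91 were called, beside 0.573% of all, and log2FC was 2.18 and -2.05 (adjusted p = 0.0863). Over the days 3 of 91 were called (3.30%, beside 1.83% of all), the 18-nt sequence with log2FC 1.67 (SE 0.38), a 19-nt form of miR-23a with 1.55 (SE 0.41), also listed through PD16 and PD20 alone, and miR-27a (log2FC -1.19, SE 0.29, adjusted p = 0.0156). Since 2 of these 3 were so listed, nothing is read from their share either. Without CD20 replicate 1 (0.916% of all called) the 18-nt sequence alone of these was called, and miR-27a missed the threshold (edgeR, adjusted p = 0.0517).

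In the cycle miR-17-5p, of the miR-17-92 cluster, rose from CD12 to CD20 (log2FC 2.36, SE 0.51, adjusted p = 0.0120) and from CD16 to CD20 (log2FC 2.32, SE 0.47, adjusted p = 0.0251), which is 1 of 91 in each (1.10%, beside 0.458% and 0.458% of all). Without CD20 replicate 1 these were 1.90 (adjusted p = 0.0468) and 1.93 (adjusted p = 0.0646), so the second call was lost, beside 0.344% and 0.229% of all called. The median log2FC of the 91 was 0.51 on CD20 vs. CD12 and -0.18 on PD20 vs. CD20, beside 0.09 and -0.03 over all sequences. For D20 minus D16 of P vs. C 4 of 91 were called (4.40%, beside 2.41% of all), all negative, namely miR-17-5p (log2FC -1.96, SE 0.54, adjusted p = 0.0452), miR-27a (log2FC -2.51, SE 0.68, adjusted p = 0.0440) and miR-16 forms of 21 nt (log2FC -1.82, SE 0.49, adjusted p = 0.0440) and 23 nt (log2FC -3.22, SE 0.66, adjusted p = 0.0233). Without PD20 replicate 1 (0.229% of all called) only the 23-nt miR-16 form stayed called among the 91, at a log2FC of -3.04 (edgeR, adjusted p = 0.0443). Without CD20 replicate 1 the F-test called 0.0% of all sequences, so none of the 91 could stay called. The F-test called 0 of 91 in every other comparison, beside 0.0% to 0.802% of all sequences. With so few calls in all, nothing is read from these counts of 0. An unadjusted p under 0.05 was reached by 5 (5.49%, beside 6.08% of all) in PD12 vs. CD12 and by 13 (14.3%, beside 10.9%) in PD16 vs. CD16. It was reached by 18 (19.8%, beside 18.7%) when both later days of pregnancy were set against D12 and by 7 (7.69%, beside 14.2%) in PD20 vs. PD16. In the joint test of the cycle the count was 35 (38.5%, beside 23.9%). For D16 minus D12 and D20 minus D12 of P vs. C the counts were 9 (9.89%, beside 8.13%) and 23 (25.3%, beside 16.4%).

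Marker miRNAs of cell types were summed and compared between PD20 and CD20. miR-126, made mostly by endothelium, was matched with 17 sequences and led by an isomiR of miR-126. Its level lay between 3321 and 4829 (median 3670.5) normalized reads in PD20, and the CD20 libraries held 4836, 4381, 4584, 4956 and 4264. The means were 3913 ± 606 in PD20 and 4604 ± 293 in CD20, and the groups overlapped. Of its sequences 0 were called and 4 had an unadjusted p under 0.05 (23.5%, edgeR), which is below the 28.5% of all sequences. Leaving out PD20 replicate 1, 1 of the 17 was called, beside 1.03% of all, a 20-nt form of miR-126 (log2FC -2.21, SE 0.47, adjusted p = 0.0320, against -1.76 and 0.0603 with all libraries), and without CD20 replicate 1 none was. An unadjusted p under 0.05 was reached by 8 (47.1%, beside 16.4%) for D20 minus D12 of P vs. C. It was reached by 7 (41.2%, beside 21.2%) in CD20 vs. CD16, but by 0 (beside 10.9%) in PD16 vs. CD16 and 1 (5.88%, beside 19.6%) over the days. In each of these 0 were called. Every CD20 library lay above every CD12 (at most 3363) and CD16 (at most 3879) library.

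Epithelial miRNAs (7 of 7 matched, led by miR-200c) lay between 7960.4 and 17313 (median 10874) in PD20 and held 5061, 7729, 11069, 9306 and 8718 in CD20, with overlap. Of their 47 sequences 3 were called in PD20 vs. CD20 (6.38%, beside 1.49% of all), all of them miR-205 and all lower, with log2FC of -2.96 (21 nt), -4.86 (22 nt) and -2.92 (23 nt). The same 3 were called lower over the days (beside 1.83% of all), and canonical miR-205 also for D20 minus D12 of P vs. C (log2FC -5.75, SE 1.07, beside 0.115% of all). The 21-nt form met the read minimum in CD12 and CD20 alone and the 22-nt form in CD16 and CD20 alone, so both are descriptions, as is the D20 minus D12 value, and nothing is read from the share of 6.38%. The 23-nt form met it in every group but PD20, and its calls held without PD20 replicate 1 and without CD20 replicate 1. With PD20 replicate 1 left out (1.03% of all called), miR-203 was called (log2FC 1.61, adjusted p = 0.0479, against 0.0581 with all libraries). Smooth muscle miRNAs (miR-143 and miR-145, led by miR-143-3p) took between 7.65 and 41.0 (median 11.4) percent of the annotated reads in PD20, highest in replicate 1, and 16.5, 12.5, 8.58, 9.80 and 8.56 percent in CD20. An 18-nt form of miR-143 rose from PD16 to PD20 (log2FC 1.68, SE 0.36, adjusted p = 0.0314, beside 0.573% of all called), but without PD20 replicate 1 it was not called, at 1.53 (adjusted p = 0.0505), beside 0.458% of all. With all libraries, 19 of the 31 smooth muscle sequences had an unadjusted p under 0.05 in PD20 vs. PD16 (61.3%, beside 14.2% of all, edgeR).

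Skeletal and heart muscle miRNAs (3 of 5 matched, led by miR-1, without miR-133a and miR-133b) lay between 1416 and 40186 (median 3853) in PD20 and held 2144, 1333, 1111, 8771 and 2054 in CD20. Erythrocyte miRNAs (3 of 3, led by miR-451) lay between 822 and 3977 (median 2072) in PD20 and held 1783, 887, 742, 1641 and 326 in CD20. Leukocyte miRNAs (3 of 4, led by miR-142, without miR-223) lay between 70.8 and 153 (median 113) in PD20 and held 206, 135, 87.0, 105 and 78.6 in CD20. All these groups overlapped. In PD20 vs. CD20 an unadjusted p under 0.05 (edgeR) was reached by 5 of 8 muscle and 6 of 16 erythrocyte sequences (62.5% and 37.5%). It was reached by 17 of 47 epithelial, 7 of 31 smooth muscle and 2 of 9 leukocyte sequences (36.2%, 22.6% and 22.2%). The share of all sequences was 28.5%. For D20 minus D16 of P vs. C, 3 sequences of miR-143, 2 of miR-1 and 1 of miR-451 were called, all positive (log2FC between 2.71 and 3.91, edgeR). These made up 9.68%, 25% and 6.25% of the 3 lists, beside 2.41% of all. Of the 4 groups that enter this difference, the 20-nt form of miR-143 met the read minimum in PD20 and CD16 alone, and one of its 23-nt forms in all but CD20, so these values are descriptions and nothing is read from the 9.68%. Without PD20 replicate 1, whose muscle sum was 40186 against at most 8098 in the other PD20 libraries, 0 of them were called, and miR-1 gave log2FC 1.64 and 1.69 in place of 3.33 and 3.23. The 3 sequences of miR-143 then gave between 2.02 and 2.32 and that of miR-451 2.89 (adjusted p = 0.0509). None of them was called without CD20 replicate 1 either. With the one and the other left out, the F-test called 0.229% and 0.0% of all sequences. The name match found 0 of 5 embryonic miRNAs, and miR-302, the one found by its sequence, is given above. The part of these cell types in the values of miR-222 was not tested.

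Across the 30 libraries the neighbouring miRNAs were only loosely alike. Pearson r of log2(CPM + 1) was 0.387 between summed miR-221-3p and summed miR-222, 0.254 between the 2 arms of miR-221 and 0.115 between miR-221-5p and miR-222. Of 167 other summed rows with a mean of at least 10 CPM, the 3 most like miR-221-3p were miR-31 (0.545), miR-378 (0.523) and miR-145-3p (0.520). Those most like miR-222 were miR-22-3p (0.646), miR-30a-3p (0.597) and miR-127 (0.552), and those most like miR-221-5p were miR-199b-5p (0.699), miR-192 (0.530) and miR-199a-5p (0.519). Of the 167 rows, miR-222 took place 13 in likeness to miR-221-3p, and miR-221-3p took place 25 in likeness to miR-222. miR-221-5p took place 42 in likeness to miR-221-3p and place 66 in likeness to miR-222. These values are descriptions over animals that share group, depth and scaling.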

How the data were processed

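For each library the authors deposited the counts of reads of each distinct sequence, after joining 2 runs, quality filtering, adapter removal and dropping reads under 17 nt. These counts were neither aligned nor normalized, and no genome was used here. Sequences were joined by exact match to the 873 names and sequences of the study's annotated list. The members, marker lists and tests were chosen with earlier results of these data known, and the most abundant further forms after seeing the counts. miR-302 was matched by the sequence of its assay, also after seeing the data. Named sequences were all members, with a test where the unadjusted p was under 0.05, the 3 canonical sequences and the 3 sums in P vs. C, and up to 4 called sequences per list and comparison.

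The quasi-likelihood F-test of edgeR 4.0.16 (R 4.3.3, TMM, prior count 0.125) was fitted over all annotated sequences, within P, within C, for P vs. C on each day alone, and over all 30 libraries for the mean and the interaction. Benjamini-Hochberg adjustment covered all of them. The SE is the absolute log2FC over the square root of F. A sum joins listed sequences with the same hairpin name and at least 12 shared bases. Alternatives were the likelihood ratio test, DESeq2 1.42.0, other scalings and filters, blocks and leaving out each library. Scripts were tested on simulated data. Permutation tests used scipy 1.17.1. Replicates are biological by the labels. The libraries were sequenced in 3 pools, and the pool of each is not given in the sources used here, so no value within a pool is given. The running numbers in the library titles, over which the groups are spread, were fitted as a block in runs of 12 without knowing whether they match the pools. The list's own comparison columns were not used. Reads of PCR products are not independent molecules, and how well adapters joined each sequence was not measured.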

Additional observations from a re-analysis of the deposited data

Results flagged for a closer look

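Of 108 groups of values examined for a library far from the rest of its group (Dixon's criterion), 8 held one, where chance gives about 5.40. PD12 replicate 5 gave 3 of them. It had 12.2 normalized reads of miR-221-3p DEL T against 5.76 to 7.56 in the other PD12 libraries, 3.85 of miR-222 DEL CTC against 0.339 to 0.625, and a mean miR-221-3p length of 22.43 nt against 22.67 to 22.71 nt. All 3 lie on the side of shorter forms. CD20 replicate 1 gave another 2, with a mean length of 22.41 nt for miR-221-3p against 22.68 to 22.77 nt and of 23.42 nt for miR-222 against 23.98 to 24.08 nt in the other CD20 libraries. PD20 replicate 6 had 10.6 normalized reads of miR-221-3p ADD CA against 2.37 to 5.37. CD12 replicate 3 had 24.9 of miR-222 DEL C against 5.89 to 7.67. PD12 replicate 3 had a log2 ratio of miR-221-5p to miR-221-3p of -3.66 against -2.53 to -2.17. The causes were not tested.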

How the results depend on the processing

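Under every setting run, the number of called members and of called sums stayed at 0 for P vs. C on D12, on D16 and over the days, for the interaction terms and between days of pregnancy. For PD20 vs. CD20, miR-222 ADD T gave 1 called member with the likelihood ratio test, with DESeq2 and with 1 fit of all libraries (14.2%, 15% and 11.2% of all called), and the miR-222 sum was called (1 of 3) with the likelihood ratio test and with RLE scaling (15.2% and 9.28% of the summed rows). Leaving out each library gave 0 to 1 called in both, with 1 only without PD20 replicate 4 (13.3% and 15.6% of all). miR-221-3p ADD CA, listed through CD20 alone, gave 1 called member on CD16 and CD20 vs. CD12 with the likelihood ratio test and DESeq2, and on CD20 vs. CD16 with these and with 1 fit of all libraries (6.41%, 8.59% and 7.33% of all), and 0 when any library was left out. The log2FC of ADD T in PD20 vs. CD20 stayed between 1.29 and 1.94 under all settings (adjusted p from 0.0161 to 0.283), and that of the sum between 0.76 and 1.41 (adjusted p from 0.0270 to 0.227). Mean length differences of miR-222 kept their direction when each library was left out, at 0.248 to 0.415 nt for PD20 vs. CD20 and -0.505 to -0.342 nt for CD20 vs. CD16. With PD20 replicate 1 or CD20 replicate 1 left out, a setting added after seeing the data, called sequences of the 91 linked to vessel growth numbered 0 to 3 for PD20 vs. CD20 (beside 1.03% and 0.573% of all without the one and the other), 1 to 3 over the days (beside 1.37% and 0.916%) and 0 to 1 for D20 minus D16 (beside 0.229% and 0.0%). Without CD20 replicate 1 they numbered 1 for CD20 vs. CD12 but 0 for CD20 vs. CD16, beside 0.344% and 0.229% of all.

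Some directions turned. The log2FC of canonical miR-221-3p turned to 0.31 (all deposited reads as library size) and 0.19 (all deposited sequences) on D12, to -0.0245 with the replicate block on D16, and to 0.0192 with the replicate block and 0.0588 with the number in the library titles as a block on D20. Canonical miR-222 on D16 turned to 0.0081 (all deposited reads), 0.0084 (mean of at least 10 CPM) and 0.0212 (1 fit of all libraries). With all deposited reads the sums turned to 0.23 (miR-221-5p) and 0.0947 (miR-222) on D16 and to -0.32 (miR-221-3p) and -0.0418 (miR-221-5p) on D20, and with RLE miR-221-5p turned to 0.0432 on D16. That library size moved the median of all rows by -0.64 to 0.50 depending on the comparison. From canonical sequences alone the log2 ratio of miR-221-5p to miR-221-3p turned to -0.43 on D16. Leaving out each library gave log2FC of -0.19 to 0.17, -0.19 to 0.11 and -0.30 to 0.0478 for canonical miR-221-3p on D12, D16 and D20, -0.22 to 0.22 for canonical miR-222 on D16, -0.18 to 0.23 and -0.36 to 0.11 for the sums of miR-221-5p and miR-222 on D16, and -0.0898 to 0.22 and -0.0330 to 0.43 for the sums of miR-221-3p and miR-221-5p on D20. The log2 ratio of miR-221-5p to miR-221-3p ranged over -0.16 to 0.35 on D12. It ranged over 0.10 to 0.67 on D16 and 0.0033 to 0.68 on D20. Over the settings run it lay between 0.0920 and 1.93 on D12.

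The groups share replicate numbers, but the numbers do not pair animals. Deviations of same-numbered libraries from their group means correlated between -0.70 and 0.71, and in 0 of 9 comparisons was every pair above 0.1. With the replicate block 0 members and 0 sums were called. For PD20 vs. CD20 it called 5 of 873 sequences and 2 of 237 summed rows in all, and 0 in some other comparisons, so nothing is read from these counts of 0. With it the log2FC of ADD T in PD20 vs. CD20 was 1.40 (adjusted p = 0.254, edgeR), against 1.34 (adjusted p = 0.122) with the title numbers as a block. Members with few reads, such as miR-222 DEL CTC with 1 read in some PD12 libraries, allow only coarse statements.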

Other observations

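The makeup of the 24-nt ends of miR-221-3p is given with no test, since these forms were chosen after their counts were seen and ADD CA was listed through CD20 alone. ADD CT made up 87.1% ± 4.31 of ADD CT and ADD CA reads in CD20 (SD, n = 5, range 80.7% to 92.3%), 93.8% ± 2.53 in PD20 (n = 6) and 95.0% ± 3.76 in CD12 (n = 4). It made up 96.6% ± 1.24 in PD12, 97.3% ± 1.13 in CD16 and 98.0% ± 1.91 in PD16 (n = 5 each). Per read of ADD C there were 0.437 ± 0.142 reads of ADD CT in CD20 and 0.491 ± 0.109 in PD20, against 0.680 ± 0.143 in CD16 and 0.784 ± 0.192 in PD16. The unlisted 25-nt miR-222 ADD C held 757 reads in 28 of 30 libraries, with 17.6 ± 13.5 (SD, n = 6) normalized reads in PD20 and 5.40 ± 2.42 (SD, n = 5) in CD20. PD20 replicate 3 and CD16 replicate 3 had 0 reads of it. On PD20 vs. CD20 log2FC was 1.57 (SE 0.75, unadjusted p = 0.0458, adjusted p = 0.429 over all deposited sequences tested, edgeR).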
